A study of Mus musculus with 16 samples.

Results

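The 32 genes described here are markers of lymphocytes, 17 of them of T cells and 15 of B cells, out of 28095 gene names on the array. They were chosen by name: a probe counted when its gene name in the scanner files was one of the 32, and a gene with several probes was represented by the probe with the highest mean over all 16 arrays. Every one of the 32 names was found, on 49 probes in all, and 15 genes had more than 1 probe. The array's names are old for a pair of them: Igj is now called Jchain, and Faim3 is now called Fcmr.

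T cells read antigen through a receptor that signals by way of the CD3 chains, helped by the coreceptors CD4 on helper cells and CD8 on cytotoxic cells, and FOXP3 marks regulatory T cells. B cells read antigen through membrane immunoglobulin that signals by way of CD79A and CD79B, and CD20 (Ms4a1), CD22 and the receptors for the survival factor BAFF mark the mature cells. In atherosclerosis-prone mice both kinds of cell are found in plaques and above all in the fat and connective tissue around the aorta, where they can form clusters.

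The mice were females of the strain C57BL/6 without a working ApoE gene, which develop atherosclerosis, and all were ovariectomized at 4 to 5 weeks of age, so no group kept ovarian hormones. Pellets under the skin, implanted 2 weeks later and made to release for 90 days, held medroxyprogesterone acetate (MPA), norethisterone acetate (NET-A), both synthetic progestins used in hormone therapy and contraception, or no hormone (placebo). All groups ate a high-fat Western-type diet, and the aorta was taken after 78 to 90 days of treatment and frozen, without the arch and ending short of the kidney arteries. There were 4 groups of 4 arrays: MPA, its placebo (called M placebo here, after the letter in the titles), NET-A, and its placebo (N placebo). No label gives a dose. Nothing in the labels says that the samples of a group came from separate animals, so a p-value here reflects only how far these samples differ, which may be technical. In whole tissue, fewer lymphocytes and less RNA per lymphocyte cannot be told apart.

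Levels are given as the log2 processed signal minus the 75th percentile of the array, so that 0 is the brightness of that percentile and a step of 1 is a doubling. They compare arrays for 1 gene and do not compare genes. Between 46.3% and 60.6% of spots were well above background, by the scanner software's own mark, on the arrays of the MPA experiment, and between 62.3% and 78.5% on those of the NET-A experiment. MPA 1 was the array at 60.6% and MPA 2 the one at 46.3%. Spots marked as outliers made up 2.13% on MPA 1, 1.17% and 1.31% on M placebo 1 and 2, and 0.15% to 0.46% on the other arrays. The part of array quality in the lymphocyte values was not tested. No spot was saturated. A gene was tested where its probe was well above background on at least 4 of the 8 arrays of an experiment. With limma and Benjamini-Hochberg adjustment over all genes tested, 0 of 15219 genes passed 0.05 between MPA and M placebo, 0 of 20912 between NET-A and N placebo, and 0 of 15089 for the difference between both responses, which is 0% in each. The smallest adjusted p was 0.689, 0.317 and 0.173 in that order. Unadjusted p under 0.05 was reached by 951 genes (6.25%), 1283 genes (6.14%) and 1029 genes (6.82%). Split by direction these were 3.69% higher and 2.56% lower with MPA, 2.53% and 3.61% with NET-A, and 4.37% and 2.45% for the difference. All 8 smooth muscle markers on a list used to check the tissue were tested in both experiments. Some arrays stood apart on markers of other tissues and cell types, as a mean deviation from the 8 arrays of an experiment. Skeletal muscle markers were at 4.35 in M placebo 3, and at 0.82 to 1.11 in NET-A 1 to 3 against -0.71 to -0.49 in NET-A 4 and the N placebo arrays. Mesothelial markers were at -3.11 in M placebo 1, against -0.65 to 1.70 on the other arrays of that experiment. In the NET-A experiment, adipocyte markers were at 1.11 in NET-A 2 and -0.92 in NET-A 1, against -0.34 to 0.24 on the other arrays. Endothelial markers were at 0.67 in NET-A 2 and -0.52 in NET-A 1, against -0.23 to 0.13. Neutrophil markers ran from -2.35 to 0.14 in M placebo and from 0.475 to 1.77 in MPA. They ran from -0.79 to 0.17 in N placebo and from -0.16 to 0.89 in NET-A. Of those tested, 6 of 6 were higher with MPA and 6 of 8 with NET-A, against 50.3% and 45.9% of all genes. The part of all these markers in the lymphocyte values was not tested.

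Lymphocyte transcripts were measurable but mostly dim. Of the 17 T cell genes, 11 were tested in the MPA experiment and 16 in the NET-A experiment, and of the 15 B cell genes, 10 and 14. On all 16 arrays, 7 T cell genes (Cd3d, Cd3e, Cd8b1, Cd5, Cd6, Il7r and Thy1) and 4 B cell genes (Cd79b, Ms4a1, Cd22 and Faim3) were well above background. At the other end, Cd2, Cd4, Ubash3a, Blk and Pax5 were well above background on 0 of the 8 arrays of the MPA experiment. Cd2 and Cd4 were well above background on all 8 arrays of the NET-A experiment, Blk on 7, Ubash3a on 4 and Pax5 on 2. Foxp3 was well above background on 1 and 5 arrays of the MPA and NET-A experiments, Cd79a on 1 and 8, Spib on 1 and 8, Zap70 on 3 and 8, Fcrl1 on 2 and 5 and Cd28 on 2 and 2. The remaining tested members ranged from 4 to 8 arrays in the MPA experiment, with Cd3g on 4 and Fcrla, Icos and Pou2af1 on 5, and were on 7 or 8 arrays in the NET-A experiment. Counting a member by any of its probes left the numbers tested as they were.

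Both experiments differed in the level of several members, in placebo as in treated arrays. Cd8a averaged 0.01 ± 0.65 (SD, n = 4) in M placebo and -3.17 ± 0.78 (SD, n = 4) in N placebo. The kinase gene Lck averaged 0.49 ± 0.43 (SD, n = 4) in M placebo and -2.60 ± 0.73 (SD, n = 4) in N placebo. Cd4 ran the other way, at -5.65 ± 0.35 (SD, n = 4) in M placebo and -2.95 ± 0.28 (SD, n = 4) in N placebo. It was not well above background on any M placebo array. Among the 21038 genes tested in at least 1 experiment, 12.9% had placebo means more than 2 apart. A gap as high as that of Cd8a was found in 1.29% and as high as that of Lck in 1.37%, and one as low as that of Cd4 in 3.65%. The experiments were also scanned with different versions of the scanner software, so experiment and level cannot be told apart, and every change below is taken within an experiment.

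Most members of the thymus list, drawn up to mark immature T cells, had higher levels in M placebo than in N placebo. Not every gene on it is confined to those cells, Cd1d1 among them. Rag1, which cuts DNA during antigen receptor rearrangement, was well above background on all 8 arrays of the MPA experiment and on 2 of the NET-A experiment. Its levels in the MPA experiment were -1.02, -0.88, 0.15 and -0.54 in M placebo 1 to 4 and 0.82, -1.40, -3.38 and -1.85 in MPA 1 to 4. In the NET-A experiment they were -6.53, -6.36, -7.88 and -7.80 in N placebo and -2.22, -8.23, -7.19 and -3.49 in NET-A, where only NET-A 1 and 4 stood above the rest. Arpp21, a gene of developing thymocytes, was well above background on 6 and 0 arrays of the MPA and NET-A experiments. Of the 6 genes on that list, 4 were tested in the MPA experiment and 3 in the NET-A experiment. Ptcra, the partner chain of the receptor on immature T cells, ran the other way, on 1 and 8 arrays, with placebo means of -5.31 and -3.73. Dntt and Cd1d1 were on 8 arrays of each experiment. In M placebo and N placebo, the means were 0.82 and -1.96 for Dntt and 3.39 and 1.60 for Cd1d1. A gap as high as that of Rag1 was found in 0.152% of genes, that of Dntt in 1.78% and that of Cd1d1 in 5.91%. One as low as that of Ptcra was found in 14.1%. Rag2, the partner of Rag1, was well above background on 0 arrays of either experiment, so its placebo levels cannot be compared.

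No T cell gene passed the adjusted threshold with MPA, against 0% of all genes. Of the 11 tested, 5 had a log2 change above 0 and 6 below, against 50.3% above 0 among all genes tested, and the groups overlapped for every one of the 11. Among all genes, 2.5% had MPA arrays all above and 1.51% all below the placebo arrays. Their median log2 change was -0.12, or 0.0014 over all 17 members with a probe, and that of all genes tested was 0.0018. The spread among MPA arrays was wide: MPA 1 was the highest of its group for all 10 members measured on it, against 30.9% of all genes tested, and MPA 3 was the lowest for 7 of 11, against 18.5%.

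Among the chains of the T cell receptor complex, Cd3d, whose product couples the receptor to signalling, showed that pattern. In M placebo 1 to 4 its level was -2.51, -2.10, -1.71 and -1.23, and in MPA 1 to 4 it was -0.42, -1.93, -2.38 and -2.11. MPA 1 lay above every placebo array and the other three MPA arrays lay within the placebo range. The log2 change of Cd3d was 0.18 ± 0.44 (SE), with an adjusted p of 0.964 by limma, and its 95% interval ran from -0.81 to 1.17. Without MPA 1 it was -0.25.

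Cd3e codes for another signalling chain of the complex and had marked outlier spots on M placebo 1, M placebo 2 and MPA 1, which were left out. The levels that remained were -0.16 and -0.09 in M placebo 3 and 4 and -1.59, -1.03 and 0.35 in MPA 2 to 4. MPA 4 lay above both placebo arrays and MPA 2 and 3 below them. For Cd3e the log2 change was -0.63 ± 0.56 (SE), with an adjusted p of 0.884 by limma, on 5 arrays. With the marked spots kept it was -0.67. It was -0.22 without MPA 2, which is also the value within slide 2, -1.19 without MPA 4, and -0.079 with the median of all its probes.

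Cd3g, the remaining CD3 chain on the list, was close to background. Its level was -4.38, -3.59, -2.95 and -3.25 in M placebo and -2.79, -4.35, -4.94 and -3.99 in MPA. MPA 1 was the highest of the 8 arrays and MPA 3 the lowest. For Cd3g the log2 change was -0.47 ± 0.46 (SE), with an adjusted p of 0.886 by limma. The 3 CD3 genes lie side by side on chromosome 9, and their probes are placed by the files, on build mm9, at chr9:44781716-44782300 (Cd3g), chr9:44794171-44794402 (Cd3d) and chr9:44807254-44807313 (Cd3e).

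Of the coreceptors, Cd8a had the widest spread among T cell genes in MPA. Its level was -0.57, -0.50, 0.34 and 0.76 in M placebo and 2.07, 0.16, -1.57 and -0.37 in MPA. MPA 1 was the highest and MPA 3 the lowest of the 8 arrays, so the placebo range lay inside that of MPA. The log2 change of Cd8a was 0.06 ± 0.68 (SE), with an adjusted p of 0.995 by limma, and it was -0.60 without MPA 1. Both other Cd8a probes gave values below 0, -0.51 and -0.16. Cd8b1, the other CD8 chain, had a log2 change of 0.11 ± 0.56 (SE). Cd4 was at background in both groups, at -5.92, -5.94, -5.23 and -5.50 in M placebo and -5.56, -4.66, -5.94 and -6.00 in MPA, so no change can be given for it.

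Il7r, the receptor for the survival factor interleukin-7, was the T cell gene with the smallest p. Its level was 0.71, 1.57, 1.504 and 1.91 in M placebo 1 to 4 and 0.96, 0.65, 0.90 and 0.86 in MPA 1 to 4. All 4 MPA arrays lay below M placebo 2, 3 and 4, and M placebo 1 lay inside the MPA range, so the groups overlapped. The log2 change was -0.58 ± 0.24 (SE), a ratio of 0.668, with an unadjusted p of 0.0409 and an adjusted p of 0.778 by limma, so it did not pass. An unadjusted p under 0.05 in the lower direction was reached by 2.56% of all genes and by this 1 of 11 T cell genes. It was below 0 within slide 1 (-0.34) and within slide 2 (-0.82), without each array in turn (-0.82 to -0.42), and on a second probe that was well above background on 4 arrays (-0.54). The probe used lies at chr15:9435976-9436035 on build mm9. Macrophage markers lay beside Il7r: 10 of 10 had a log2 change below 0, where 50.3% of all genes were above 0. Their mean deviation from the mean of the 8 arrays ran from -0.34 to 1.03 in M placebo and from -0.52 to -0.11 in MPA. The part of these markers in the Il7r value was not tested.

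The other T cell genes tested with MPA stayed within 0.24 of 0. Cd6, an adhesion and signalling receptor, had levels of -1.81, -1.63, -1.08 and -0.77 in M placebo and -0.05, -1.05, -1.87 and -1.35 in MPA, with a log2 change of 0.24 ± 0.39 (SE). The log2 change was 0.0032 ± 0.38 for Cd5, which dampens receptor signals, -0.12 ± 0.57 for Lck, the kinase that starts them, and -0.21 ± 0.47 for the costimulatory receptor Icos (each with its SE). Thy1, a surface protein of T cells that fibroblasts and other cells also carry, was at 3.33, 3.77, 4.07 and 4.29 in M placebo and 4.34, 3.38, 3.42 and 3.48 in MPA. MPA 1 stood apart from the other three MPA arrays, which lay close together, and the log2 change of Thy1 was -0.21 ± 0.28 (SE), while a second probe gave 0.047. Foxp3 was dim, with -5.51, -5.73, -5.27 and -5.45 in M placebo and -5.94, -3.49, -5.82 and -3.66 in MPA, and was well above background only on MPA 4.

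**Figure D1:**
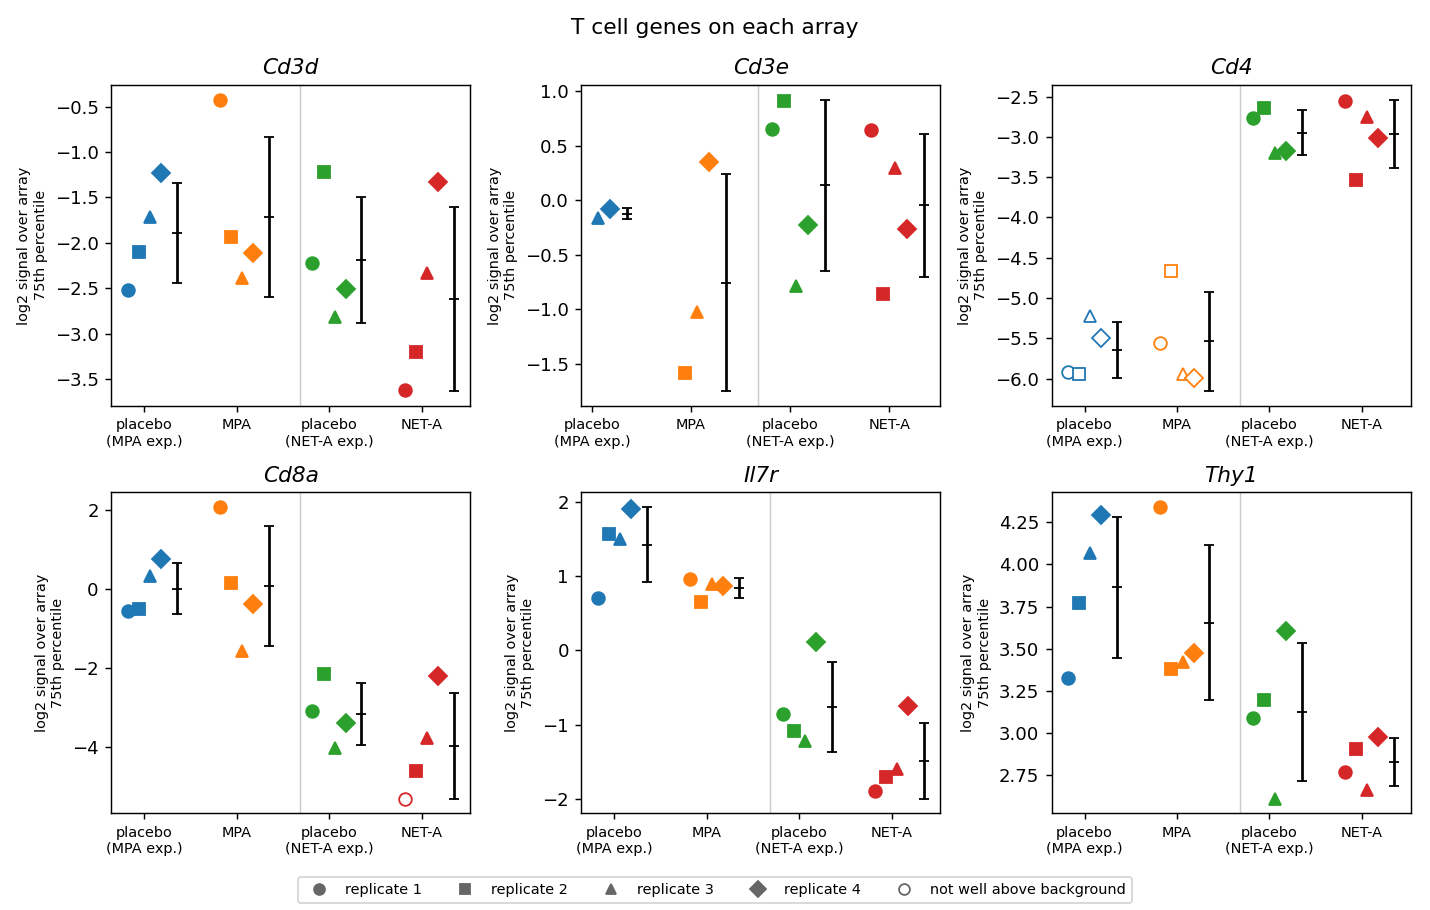
Level of 6 T cell genes on each array, as log2 signal over the array's 75th percentile, with replicate number as the symbol and the mean ± SD of each group in black. Open symbols were not well above background. MPA replicate 1 is the highest MPA array for Cd3d, Cd8a, Il7r and Thy1, and groups of an experiment overlap in every panel; Cd3e lacks 3 arrays.

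The 2 slides of the MPA experiment gave opposite values. Each slide held 2 arrays of each group. On slide 1, 8 of the 10 T cell genes measured there were higher with MPA, with a median log2 change of 0.72. On slide 2, 0 of 11 were higher and the median was -0.78, while the median of all genes was -0.02 and 0.04 on slides 1 and 2. Slide 1 held MPA 1 and slide 2 held MPA 3. Over the 8 arrays, the mean deviation of the T cell genes was 1.16 in MPA 1 and -0.74 in MPA 3, with the other 6 arrays from -0.40 to 0.49. Leaving out MPA 1 moved the median log2 change of T cell genes from -0.12 to -0.60, and leaving out MPA 3 moved it to 0.18. The thymus list took the same extremes, at 1.54 in MPA 1 and -1.42 in MPA 3, with M placebo arrays from -0.23 to 0.50, and its part in the T cell values was not tested. With MPA, 3 of the 4 thymus genes tested had a log2 change below 0, where 50.3% of all genes were above 0. Rag1 had the lowest, at -0.88 ± 0.75 (SE).

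With NET-A, 15 of the 16 T cell genes tested had a log2 change below 0, against 45.9% of all genes above 0, but no T cell gene passed the adjusted threshold and 0% of all genes did. The median log2 change of the T cell genes was -0.18, and -0.02 over all genes tested. Without NET-A 2 that median was -0.034, and without N placebo 3 it was -0.39. Groups overlapped for each of the 16, where 1.58% of all genes had NET-A arrays all above and 2.27% all below the placebo arrays. The values split by slide: the median was -0.64 on slide 3 and -0.44 on slide 4, which held 1 array of each group, and 0.05 on slide 5, which held 2. On slide 5, 9 of the 16 were higher with NET-A. Of 12 markers on a general leukocyte list, which are not all carried by every leukocyte, 11 had a log2 change below 0 with NET-A. The exception was Ptprcap, at 0.70. The mean deviation of the 12 ran from -0.29 to 0.81 in N placebo and from -0.56 to 0.30 in NET-A. NET-A 4, the highest array of its group for 9 of the 16 T cell genes and for those markers, was also the NET-A array without raised skeletal muscle markers (-0.49). The part of either list in the T cell values was not tested.

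Il7r had the smallest p again. It was at -0.86, -1.09, -1.22 and 0.11 in N placebo 1 to 4 and at -1.90, -1.71, -1.60 and -0.75 in NET-A 1 to 4. Of the NET-A arrays, 3 lay below all N placebo arrays and NET-A 4 lay among them. For Il7r the log2 change was -0.73 ± 0.35 (SE), with an adjusted p of 0.843 by limma, and its 95% interval ran from -1.53 to 0.08. It was below 0 on each of the 3 slides (-1.04, -0.51 and -0.68), with each array left out in turn (-0.97 to -0.43) and on the second probe (-0.64). As with MPA, 10 of 10 macrophage markers had a log2 change below 0 with NET-A, where 45.9% of all genes were above 0. Mean deviations of these markers ran from -0.15 to 1.19 in N placebo and from -0.37 to -0.08 in NET-A. N placebo 4 was the highest array of its group for Il7r and for those markers. Their part in the Il7r value was not tested. Without N placebo 4 the log2 change of Il7r was -0.43.

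Thy1 and Cd8a followed in order of p. Thy1 was at 3.09, 3.19, 2.61 and 3.60 in N placebo and 2.77, 2.91, 2.67 and 2.98 in NET-A, with N placebo 1, 2 and 4 above and N placebo 3 below all NET-A arrays. Its log2 change was -0.29 ± 0.21 (SE), with an adjusted p of 0.921 by limma. Cd8a was at -3.08, -2.15, -4.03 and -3.40 in N placebo and -5.31, -4.60, -3.77 and -2.19 in NET-A, where NET-A 1 was not well above background. NET-A 1 and 2 lay below every N placebo array, NET-A 3 and 4 lay inside the placebo range, and the log2 change was -0.80 ± 0.67 (SE), with an adjusted p of 0.949 by limma. It was -0.35 without NET-A 1 and -1.39 without NET-A 4.

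The CD3 chains and Cd4 gave small values. Cd3d was at -2.22, -1.22, -2.81 and -2.50 in N placebo and -3.61, -3.20, -2.33 and -1.33 in NET-A, with a log2 change of -0.43 ± 0.53 (SE). Cd3e was at 0.65, 0.91, -0.78 and -0.23 in N placebo and 0.64, -0.86, 0.29 and -0.27 in NET-A, with a log2 change of -0.19 ± 0.45 (SE). High and low arrays stood on both sides for both genes. Cd3g was at -3.39, -3.57, -3.68 and -3.75 in N placebo and -4.18, -4.23, -3.39 and -2.96 in NET-A, with a log2 change of -0.09 ± 0.29 (SE). Cd4 was at -2.77, -2.64, -3.20 and -3.18 in N placebo and -2.55, -3.53, -2.75 and -3.01 in NET-A, well above background on every array. For Cd4 the log2 change was -0.02 ± 0.24 (SE), one of the tightest values among T cell genes, with a 95% interval from -0.56 to 0.53.

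Foxp3 was at -3.29, -6.17, -5.17 and -4.39 in N placebo and -4.24, -4.65, -7.22 and -4.57 in NET-A, with 5 of the 8 arrays well above background. Its log2 change of -0.41 ± 0.79 (SE) had a 95% interval from -2.23 to 1.40, so a change of several-fold either way could not be told at this signal. Cd6 was at -1.67, -0.95, -1.82 and -1.75 in N placebo and -2.08, -2.21, -1.33 and -1.24 in NET-A, with a log2 change of -0.17 ± 0.29 (SE), while a second probe gave 0.21. Of the 16 T cell genes tested, the log2 change was above 0 only for Zap70, the kinase that follows Lck in receptor signalling, at 0.56 ± 0.61 (SE), where NET-A 1 reached -0.89 and the other three NET-A arrays were between -4.03 and -2.98. Icos was at -0.31 ± 0.31, Lck at -0.40 ± 0.51, Cd8b1 at -0.11 ± 0.50, Cd5 at -0.11 ± 0.23, the adhesion receptor Cd2 at -0.08 ± 0.30 and Ubash3a, a brake on receptor signalling, at -0.07 ± 0.33 (log2 change with its SE). Cd28, the main costimulatory receptor, was too dim to be tested in either experiment, with levels from -4.81 to -3.18 and from -6.53 to -5.30 in the MPA and NET-A experiments.

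The B cell genes tested leaned one way with MPA and the other way with NET-A, without any of them passing. With MPA, 8 of the 10 tested had a log2 change above 0, against 50.3% of all genes. The median was 0.34, or 0.20 over all 15 members with a probe, and 0.0049 without MPA 1. On a separate list of B cell receptor pathway genes, 5 of 15 were above 0 with MPA and 4 of 19 with NET-A. With NET-A, 13 of the 14 tested had a log2 change below 0, the median was -0.38, and 45.9% of all genes were above 0. Adjusted p ran from 0.791 to 0.998 with MPA and from 0.845 to 0.998 with NET-A by limma. The groups overlapped for each of the 10 tested with MPA and the 14 tested with NET-A. Among all genes, 2.5% had MPA arrays all above and 1.51% all below the placebo arrays, and with NET-A 1.58% and 2.27%.

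Cd79b, a signalling chain of the B cell receptor, was at 0.13, -0.50, 0.95 and -0.42 in M placebo and 1.63, 0.77, -0.40 and 0.76 in MPA. MPA 1 lay above every placebo array, MPA 2 and 4 below M placebo 3 and above the rest, and MPA 3 among the low placebo arrays. The log2 change of Cd79b was 0.65 ± 0.45 (SE), with an adjusted p of 0.847 by limma. In the NET-A experiment Cd79b was at -0.75, 1.31, -0.61 and 0.61 in N placebo and -0.73, -1.60, 0.19 and 1.098 in NET-A, again with high and low arrays in both groups. The log2 change there was -0.40 ± 0.66 (SE), with an adjusted p of 0.998 by limma.

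Cd79a, the partner chain, did not follow it. In the MPA experiment it was well above background only on M placebo 2, with levels of -5.21, -3.30, -5.47 and -5.65 in M placebo and -4.63, -2.84, -5.62 and -5.54 in MPA. In the NET-A experiment it was well above background on every array, at -4.03, -3.21, -3.70 and -3.24 in N placebo and -2.69, -3.83, -2.25 and -3.00 in NET-A. Of the NET-A arrays, 3 lay above all N placebo arrays and NET-A 2 lay among them. Among the 14 B cell genes tested it was the only one with a positive log2 change with NET-A, 0.60 ± 0.35 (SE), with an adjusted p of 0.878 by limma, and with another background correction (normexp) it was -0.02.

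Ms4a1, which codes for CD20, was at 0.55, 0.02, 0.59 and -1.15 in M placebo and 2.01, 0.19, -0.35 and 0.59 in MPA. MPA 1 stood above the other 7 arrays. For Ms4a1 the log2 change was 0.60 ± 0.54 (SE), with an adjusted p of 0.883 by limma. Without MPA 1 it was 0.14, and without M placebo 4 it was 0.22. In the NET-A experiment Ms4a1 was at -2.06, -0.16, -1.99 and -0.80 in N placebo and -1.74, -3.00, -1.07 and -0.65 in NET-A, a log2 change of -0.36 ± 0.60 (SE) with an adjusted p of 0.998 by limma. N placebo 2 was the highest and NET-A 2 the lowest array.

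Cd22, an inhibitory receptor of B cells, had the smallest p of the 15 with MPA and for the difference between responses. Its level was -3.18, -2.45, -2.10 and -2.71 in M placebo and -1.65, -2.22, -2.06 and -2.30 in MPA. All 4 MPA arrays lay above M placebo 1, 2 and 4, and M placebo 3 lay among them. In the NET-A experiment it was at -2.32, -1.51, -2.75 and -1.60 in N placebo and -2.90, -3.33, -2.16 and -2.09 in NET-A, where N placebo 2 and 4 lay above every NET-A array. The log2 change was 0.55 ± 0.25 (SE) with MPA, with an adjusted p of 0.791, and -0.57 ± 0.37 (SE) with NET-A, with an adjusted p of 0.907, both by limma.

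The difference between both Cd22 responses was 1.12 ± 0.46 (SE), with an unadjusted p of 0.0279 and an adjusted p of 0.677 by limma, so it did not pass. It was the only one of the 21 members tested for the difference with an unadjusted p under 0.05, against 6.82% of all genes. It was above 0 with each of the 16 arrays left out in turn, from 0.88 to 1.35. A second Cd22 probe, dimmer and well above background on 2 and 4 arrays of the MPA and NET-A experiments, had 0.46 with MPA and -0.28 with NET-A. The probe used lies at chr7:31651590-31651649 on build mm9.

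**Figure D2:**
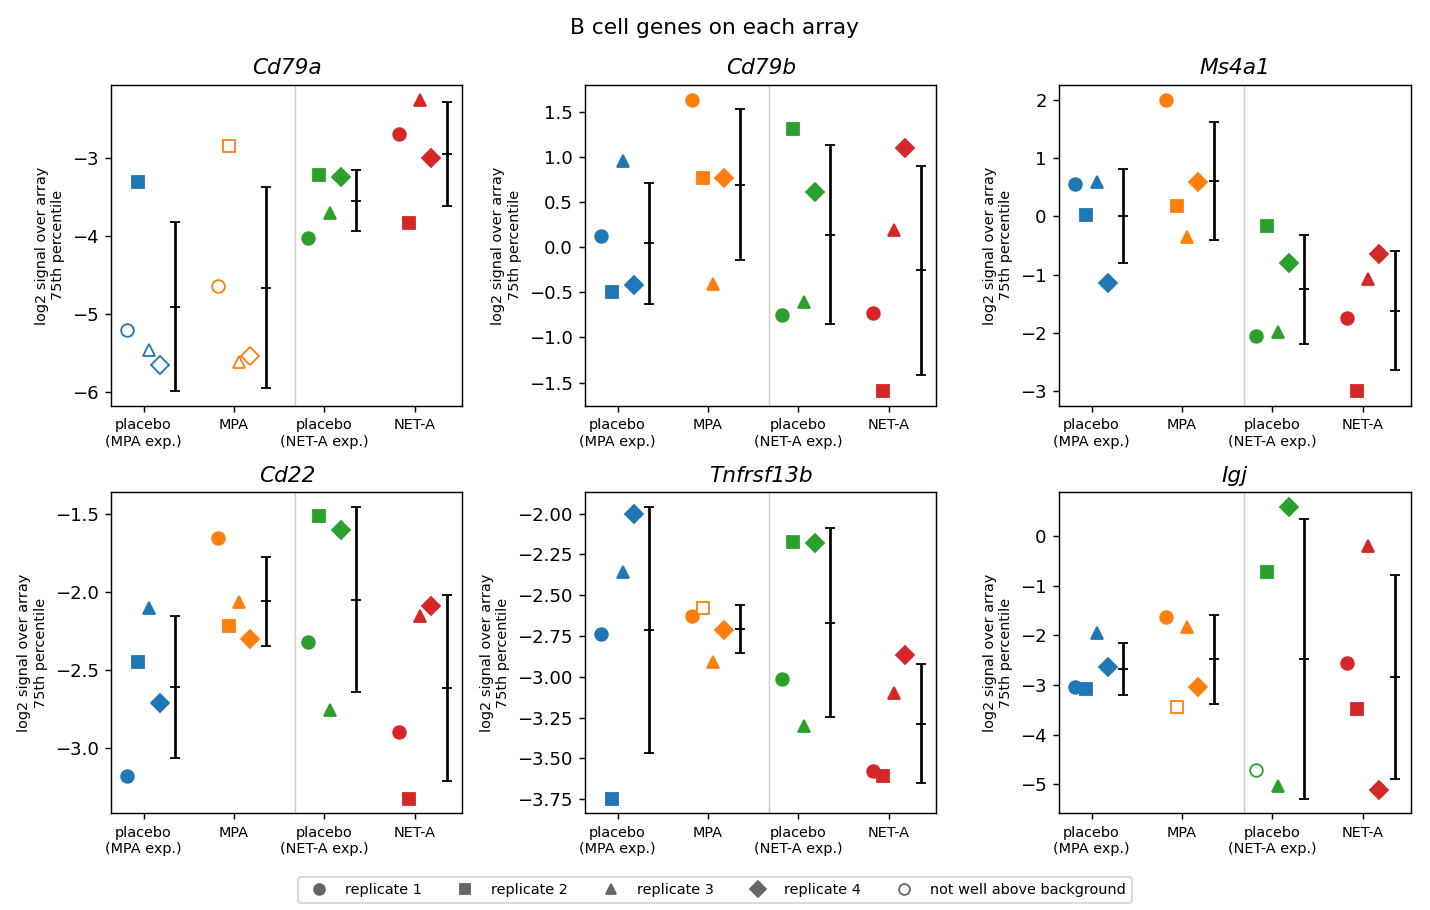
Level of 6 B cell genes on each array, drawn as for the T cell genes, with open symbols not well above background. Cd22 shows 3 of 4 M placebo arrays below all MPA arrays, and Igj spans more than 5 log2 units within N placebo.

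Both receptors of the BAFF family on the list were dim. Tnfrsf13c, the receptor that keeps mature B cells alive, was at -3.03, -3.37, -1.81 and -3.74 in M placebo and -0.98, -2.10, -3.39 and -2.44 in MPA, with a log2 change of 0.76 ± 0.54 (SE) and an adjusted p of 0.848 by limma. MPA 1 was the highest array and MPA 3 lay among the low placebo arrays. It was at -3.93, -2.11, -3.91 and -3.59 in N placebo and -3.95, -4.88, -3.95 and -2.89 in NET-A, with a log2 change of -0.53 ± 0.52 (SE). Its difference between responses was 1.29 ± 0.79 (SE), with an adjusted p of 0.818 by limma.

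Tnfrsf13b, the receptor TACI, was at -2.74, -3.75, -2.36 and -2.004 in M placebo and -2.63, -2.58, -2.91 and -2.71 in MPA, a log2 change of 0.0046 ± 0.33 (SE). MPA arrays lay close together inside the placebo range. It was at -3.01, -2.18, -3.30 and -2.18 in N placebo and -3.58, -3.61, -3.10 and -2.87 in NET-A, where N placebo 2 and 4 lay above all NET-A arrays. The log2 change was -0.62 ± 0.31 (SE) with NET-A, the smallest p among B cell genes there, with an adjusted p of 0.845 by limma. With the median of its probes in place of the brightest it was 0.0089.

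Of the kinases and transcription factors, Blk, a kinase of B cell receptor signalling, was tested only in the NET-A experiment. It was at -4.204, -4.23, -4.79 and -4.24 in N placebo and -4.36, -5.42, -4.78 and -4.55 in NET-A. N placebo 3 lay among the NET-A arrays and the other three above them, and the log2 change was -0.41 ± 0.25 (SE), with an adjusted p of 0.892 by limma. In the MPA experiment Blk ran from -6.28 to -4.63, all below background. Pou2af1, a coactivator of B cell genes, had a log2 change of 0.30 ± 0.41 with MPA and -0.15 ± 0.62 with NET-A, and Spib, a transcription factor of B cells and of plasmacytoid dendritic cells, had -0.09 ± 0.58 with NET-A (each with its SE). Pax5, which fixes B cell identity, was not tested in either experiment.

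The remaining B cell genes were surface receptors and the joining chain. The log2 change with MPA and with NET-A was 0.38 ± 0.62 and -0.08 ± 0.64 for Faim3, a receptor for IgM. It was -0.36 ± 0.41 and -0.29 ± 0.23 for the complement receptor Cr2, and -0.33 ± 0.69 and -0.79 ± 0.64 for Fcrla. Fcrl1 had -0.47 ± 0.56 with NET-A and was not tested with MPA (each with its SE). Igj, the chain that joins IgM and IgA into polymers and is made mostly by plasma cells, had the widest spread within a group of the 30 genes tested there. In N placebo it was at -4.71, -0.74, -5.03 and 0.58 and in NET-A at -2.57, -3.49, -0.21 and -5.12, with a log2 change of -0.37 ± 1.49 (SE). High arrays were present in both groups. In the MPA experiment it stayed between -3.46 and -1.63, with a log2 change of 0.20 ± 0.44 (SE). A second Igj probe, well above background on as many arrays, gave -0.34 with MPA and -0.16 with NET-A.

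**Figure D3:**
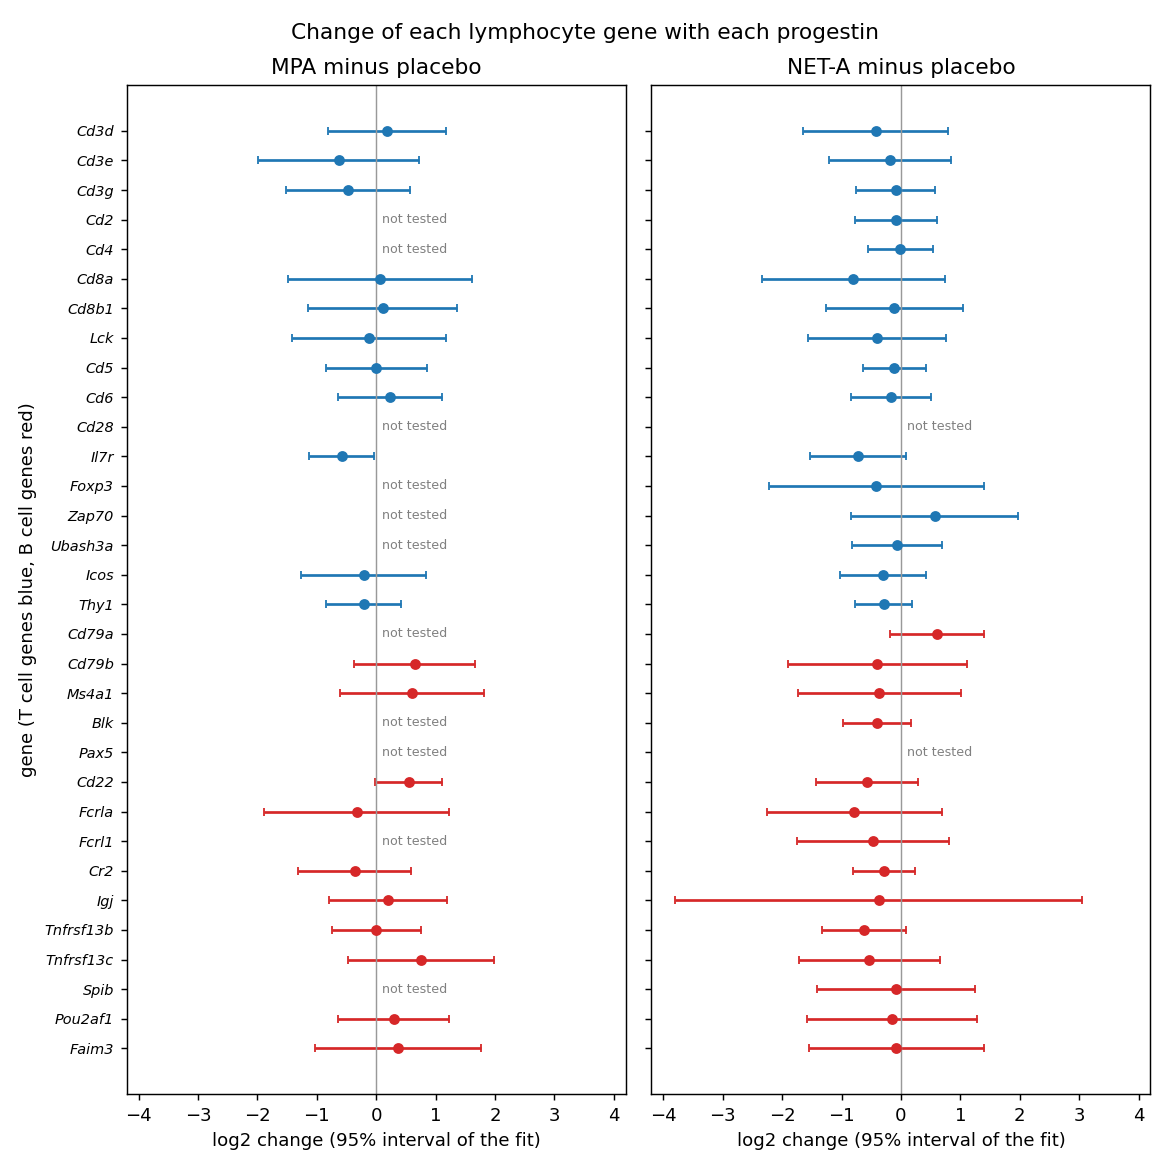
Log2 change of each of the 32 genes with MPA (left) and NET-A (right) against its own placebo, with the 95% interval of the limma fit; T cell genes are blue and B cell genes red. All intervals but that of Il7r with MPA cross 0, and genes too dim to be tested are marked.

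B cell values also changed with the slide and with single arrays. With MPA the median log2 change was 0.80 on slide 1, where 8 of 10 were higher, and -0.14 on slide 2, where 3 of 10 were higher. Without MPA 1 the median over both slides was 0.0049, and the range with each array left out in turn was 0.0049 to 0.61. With NET-A the medians were 0.07, -0.73 and -0.28 on slides 3, 4 and 5. Leaving out N placebo 2 gave a median of -0.06, the value nearest to 0, and leaving out N placebo 3 gave -0.63, the farthest. The median difference between both responses was 0.60 for the B cell genes, with 9 of 10 above 0, and 0.14 for the T cell genes, with 9 of 11 above 0, against 51.2% of all genes. For T cell genes it was -0.24 without MPA 1 and -0.04 without N placebo 2, and for B cell genes it was 0.37 without N placebo 2 and 1.03 without N placebo 3. The T cell genes with the smallest p for the difference were Cd8a (0.87 ± 1.01 SE), Cd3d (0.61 ± 0.72 SE) and Cd6 (0.41 ± 0.51 SE), with adjusted p from 0.918 to 0.988 over the 11 by limma.

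High and low arrays were largely shared among the members. MPA 1 was the highest of its group for 8 of the 9 B cell genes measured on it and MPA 3 the lowest for 8 of 10, against 30.9% and 18.5% of all genes. In the other groups T and B cell genes did not always share their extremes. M placebo 4 was the highest of its group for 8 of 11 T cell genes and the lowest for 6 of 10 B cell genes, while M placebo 3 was the highest for 7 of 10 B cell genes. N placebo 2 was the highest for 9 of 16 T cell and 11 of 14 B cell genes, against 29.5% of all genes, and N placebo 3 the lowest for 12 of 16 and 8 of 14, against 25.5%. NET-A 4 was the highest for 9 of 16 and 9 of 14, against 17.3%, and NET-A 2 the lowest for 9 of 16 and 11 of 14, against 39.3%. The gap between the extreme arrays of a group describes size only, because these same genes picked the arrays and so set its direction. MPA 1 exceeded MPA 3 by a median of 3.71-fold over the 10 T cell genes measured on both. Over 9 B cell genes it was 4.13-fold. NET-A 4 exceeded NET-A 2 by a median of 1.87-fold over 16 T cell genes and 2.87-fold over 14 B cell genes.

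**Figure D4:**
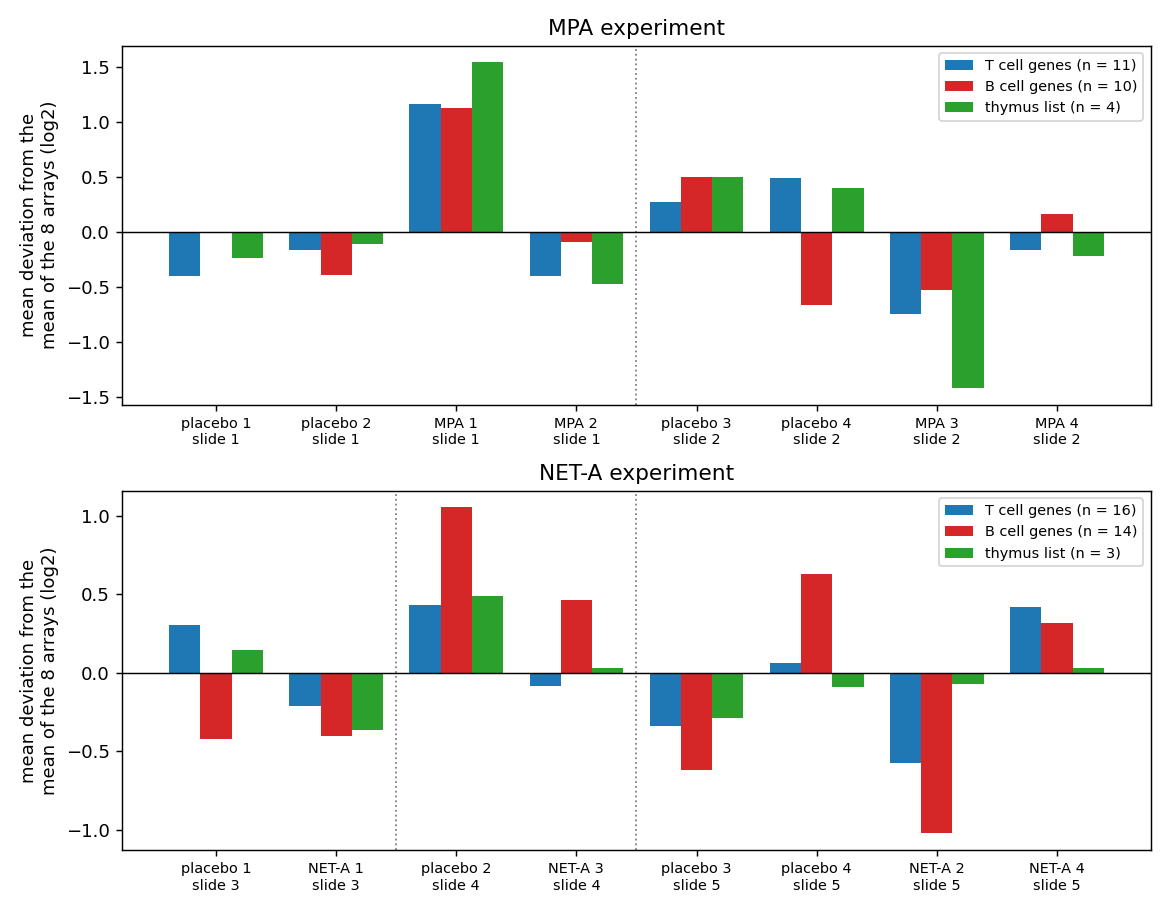
Mean deviation, in log2, of the tested T cell, B cell and thymus genes from their mean over the 8 arrays of an experiment, one set of bars per array, ordered by slide. The tallest bars of the MPA experiment belong to MPA 1, on slide 1; the lowest T cell and thymus bars belong to MPA 3, on slide 2, and the lowest B cell bar to M placebo 4.

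Genes of lymph nodes and of organised lymphoid tissue lay beside these values on some arrays of the NET-A experiment. The lymphoid list had a mean deviation of 0.90 in N placebo 2, 0.88 in N placebo 4 and -0.72 in NET-A 2, where the B cell genes had 1.05, 0.63 and -1.02. They parted on NET-A 3, at -0.075 against 0.47. In the MPA experiment both were highest in MPA 1 (0.67 and 1.13) but parted on M placebo 4, at 0.59 against -0.66. In the NET-A experiment the lymphoid list ranged from -0.39 to 0.90 in N placebo and from -0.72 to 0.31 in NET-A. Of its 9 tested genes, 8 had a log2 change below 0, where 45.9% of all genes were above 0. Glycam1, a mucin of lymph node venules, had the smallest p of the list, with a log2 change of -2.18 ± 0.54 (SE) and an adjusted p of 0.614 by limma. It was dim, with means of -4.09 in N placebo and -6.27 in NET-A. It was well above background on 4 of the 8 arrays, the fewest that allowed a test, so the size of this change is uncertain. The chemokine gene Ccl19 followed at -0.68 ± 0.22 (SE), with an adjusted p of 0.666 by limma. Their part in the B cell values was not tested. Of the plasma cell markers 0 of 5 tested were higher with MPA and 1 of 7 with NET-A. Of the natural killer and cytotoxic markers 6 of 7 and 4 of 8 were higher. Among all genes these shares were 50.3% and 45.9%.

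Spread between arrays of a group was larger for the members than for most genes. The median SD of the tested T cell genes was 0.50 in M placebo, 0.91 in MPA, 0.56 in N placebo and 0.56 in NET-A, and that of the tested B cell genes was 0.76, 0.87, 0.83 and 0.91. Over all genes tested it was 0.28, 0.28, 0.26 and 0.29. Dim probes vary more, so members were also set against genes in the same range of mean level (below -4, -4 to -2, -2 to 0 and above 0). Their SD exceeded the median of that range for 20 of 21 members in M placebo, 17 of 21 in MPA, 25 of 30 in N placebo and 24 of 30 in NET-A. Single arrays carried part of it: without MPA 1 the median SD of T cell genes in MPA was 0.48, and without NET-A 2 that of B cell genes in NET-A was 0.58. The median SE of a change was 0.46 for T cell and 0.45 for B cell genes with MPA and 0.34 and 0.57 with NET-A, against 0.21 and 0.20 for all genes.

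**Figure D5:**
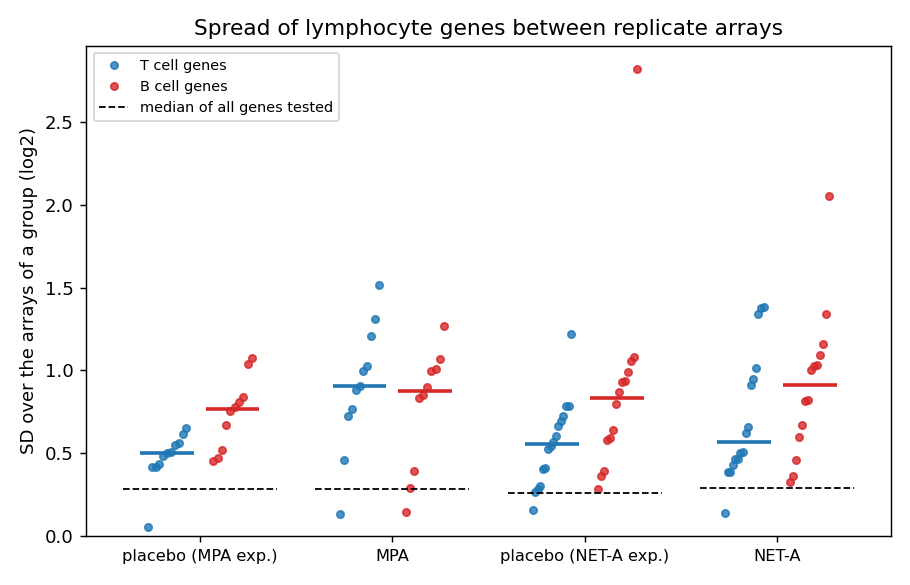
SD over the arrays of each group for every tested T cell (blue) and B cell (red) gene, with the median of each set as a bar and the median of all genes tested as a dashed line at 0.26 to 0.29. Most points lie above the dashed line, and Igj reaches 2.82 in N placebo.

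Other genes of antigen receptor signalling, from lists that hold none of the 32, gave no call either. Of 24 T cell receptor pathway genes, 18 were tested with MPA, 9 above and 9 below 0, and 21 with NET-A, 6 above and 15 below 0. The smallest p belonged to Sit1, an adaptor that dampens T cell signals, with MPA (-0.91 ± 0.37 SE, adjusted p of 0.789 by limma) and to Themis, needed for T cell development, with NET-A (0.38 ± 0.13 SE, adjusted p of 0.693 by limma). Of 20 B cell receptor pathway genes, 15 were tested with MPA, 5 above and 10 below 0, and 19 with NET-A, 4 above and 15 below 0. Among all genes, 50.3% were above 0 with MPA and 45.9% with NET-A. Cd38, an enzyme of the surface of B cells and other leukocytes, came first with MPA (-0.78 ± 0.16 SE, adjusted p of 0.689 by limma). Cd72, a B cell coreceptor that macrophages can also carry, came first with NET-A (-1.67 ± 0.44 SE, adjusted p of 0.636 by limma).

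The octamer ATGCAAAT, the site at which OCT factors and POU2AF1 act in B cell genes, was searched on both strands from 250 bases before to 50 after the start of each gene in RefSeq's promoter table (GRCm38.p6). It was in 0 of the 12 B cell and 0 of the 10 T cell members found there, and in 1.97% of all 27025 genes of the table. Cd2, Cd4, Cd6, Cd8b1, Cd28, Icos, Thy1, Blk, Cd79b and Ms4a1 were not matched.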

How the data were processed

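Total RNA from 16 mouse aorta samples was measured on 1-colour Agilent arrays. Per the file headers, the deposited intensity is Agilent Feature Extraction's processed signal (version 10.7.1.1 in the MPA experiment, 11.0.1.1 in the NET-A experiment), with probes placed on mm9, background-subtracted and not normalized between arrays. The deposited series table holds log2 values of the authors; no source used here states how they were made. Here, outlier-marked spots were left out, log2 signals were scaled to each array's 75th percentile, and genes well above background on at least 4 of 8 arrays were fitted with limma 3.58.1 (R 4.3.3) and Benjamini-Hochberg adjustment, each experiment alone, and both together for the difference between responses. Each placebo was paired with the progestin whose initial and slides it shared. The number of arrays limits the precision. The fit was tested on simulated data. Replicate numbers did not pair the arrays. The members and lists were chosen with earlier results of these data known. Values on each array were given for defining markers and, per comparison, the 3 T cell and 3 B cell members with the smallest p, and at most 2 genes of other lists; Igj, Zap70, Rag2, Dntt and Ptprcap were added after seeing values. Alternatives are in the closing section.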

Additional observations from a re-analysis of the deposited data

Results flagged for a closer look

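In groups of 4 arrays, 1 array can lie far from the other three. Dixon's test at the 95% level marked 8 of the 125 groups of member values, where chance marks about 1 in 20, which is 6.25. With high values, these were Cd5 in N placebo 2 (-1.157, others -1.762 to -1.755), Thy1 in MPA 1 (4.339, others 3.382 to 3.475), Cd28 in N placebo 4 (-5.505, others -6.534 to -6.384), Fcrl1 in M placebo 1 (-2.625, others -5.238 to -4.921) and Ubash3a in M placebo 1 (-3.829, others -5.92 to -5.574). With low values, they were Zap70 in N placebo 3 (-3.826, others -3.336 to -3.28), Blk in N placebo 3 (-4.794, others -4.242 to -4.204) and Foxp3 in NET-A 3 (-7.217, others -4.646 to -4.244). Ubash3a in M placebo 1 and Foxp3 in NET-A 3 were not well above background.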

How the results depend on the processing

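None of the 32 genes passed the adjusted threshold in any alternative run. Over all genes, MPA against M placebo had 2 calls with the slide as a block (S100a8 and S100a9), 1 with the replicate number as a replicate block (S100a8) and 1 with all 16 arrays in one fit. The difference between responses had 1 call with the replicate block (Sall4), and 0 to 1 with each array left out (1 without NET-A 1). Replicate numbers did not pair the arrays: same-numbered arrays correlated from -0.247 to 0.241 in the MPA experiment and from -0.332 to 0.327 in the NET-A experiment. The block changed no other call.

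The T cell median with MPA was 0.72 within slide 1 and -0.78 within slide 2, and with NET-A it was -0.64 within slide 3. Within slide 2, Cd3d was at -0.78, Cd8a at -1.52, Cd79b at -0.086 and Tnfrsf13c at -0.14, and within slide 1 Cd3g was at 0.42, each with the sign turned. Within slide 5 the same held with NET-A for Cd3d (0.39), Cd3g (0.13), Cd8a (0.32) and Foxp3 (0.17). Normexp turned Cd3g with MPA (0.75) and in the difference (1.11), and Cd79a with NET-A (-0.021). The median of all probes turned Cd8a with MPA (-0.16), Tnfrsf13b with NET-A (0.0089) and Cd3e in the difference (0.11). Array weights turned Cd3d (-0.0373) and Cd8a (-0.28) with MPA, Cd3g (0.13), Cd79b (0.19) and Ms4a1 (0.095) with NET-A, and Cd3e in the difference (0.20). Quantile normalization turned Cd3g (0.018) and Cd4 (0.080) with NET-A, as did the deposited series table (0.019 and 0.081).

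With each array left out, values with MPA ran from -0.25 to 0.40 for Cd3d and from -0.60 to 0.61 for Cd8a. With NET-A they ran from -0.49 to 0.084 for Cd3e, -0.33 to 0.092 for Cd3g, -0.15 to 0.18 for Cd4, -0.88 to 0.27 for Foxp3, -0.85 to 0.048 for Cd79b and -0.69 to 0.098 for Ms4a1. Of the values that kept their sign with each array left out, those with MPA ran from -0.88 to -0.17 for Cd3g, 0.34 to 1.01 for Cd79b, 0.34 to 1.16 for Tnfrsf13c and 0.36 to 0.72 for Cd22. With NET-A they ran from -0.86 to -0.096 for Cd3d, -0.47 to -0.13 for Thy1, 0.37 to 0.90 for Cd79a, -0.55 to -0.20 for Blk, -0.80 to -0.33 for Cd22 and -0.83 to -0.46 for Tnfrsf13b. The median SD ran from 0.48 to 1.03 for T cell genes in MPA and from 0.58 to 1.00 for B cell genes in NET-A. The cause of these shifts was not tested. Normexp in the NET-A experiment and in the difference, and the SDs with an array left out, were chosen after seeing the data. Dim signal limits Cd2, Cd4, Foxp3, Ubash3a, Cd79a, Blk, Pax5 and Spib in the MPA experiment, each well above background on 0 or 1 arrays.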
